A study of Triticum aestivum with 20 samples.

Results

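Leaf chromatin of winter wheat carried 88086 uninterrupted runs of state E1, and 14395 of them (16.3%) touched no run of state E2 on either side. These 14395 runs, called unbordered E1 runs below, are described here by their neighbours, their length, their distance to E2 and their state in vernalized leaf. E1 and E2 are labels of a chromatin state segmentation, in which each 200 bp bin of the genome received 1 of 9 states from histone modification and chromatin accessibility data. The members were chosen by measured values, namely the leaf states of the run and of its 2 direct neighbours, so every value taken from the leaf map alone, counts and densities of these runs included, is a description with no test. The other 73691 leaf E1 runs touched E2 on 1 side (48560 runs) or on 2 sides (25131 runs) and are called E2-bordered. No E1 run lay at a chromosome end.

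The series profiled leaves of the winter wheat cultivar AK58. The vernalized leaf group came from plants kept for 1 month in a cold chamber at 4 °C and then for 1 day in the greenhouse, and the leaf group came from plants sampled 2 weeks after germination with no cold. Cold, return to warmth and plant age therefore cannot be told apart. Each condition had 10 libraries, that is 2 replicates each of ChIP-seq for 4 histone marks (H3K27ac, H3K4me3, H3K36me3 and H3K27me3) and of input. The accessibility data behind the states came from ATAC-seq, whose libraries are not among these. The deposited segmentations gave 1 state map per condition with no value per library, so the spread between plants cannot be read from them, and the tests below compare chromosomes within these 2 maps. Read depth is not given in these files.

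H3K4me3 and H3K27ac mark active promoters and, for H3K27ac, also enhancers. H3K36me3 is laid down along transcribed gene bodies behind the elongating polymerase, and H3K27me3 is the repressive mark of Polycomb complexes. By the order of rows in the study's state panel, E1 carried all active marks in accessible chromatin, E2 mainly H3K36me3, E6 accessibility with some H3K27ac and E7 accessibility alone. E5 carried H3K27me3 alone, E3, E4 and E8 carried H3K27me3 together with active marks or accessibility, and E9 carried no mark. The segmentations hold labels only, so this reading could not be checked from them, and a state number may not stand for the same mark levels in both conditions. In a transcribed gene the promoter state is usually followed by the gene body state.

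Over the whole genome of 14066.3 Mb, E1 covered 28.8 Mb in vernalized leaf and 40.0 Mb in leaf. E6 covered 25.4 Mb in vernalized leaf and 12.7 Mb in leaf, while E2 covered 274.3 Mb in vernalized leaf and 277.7 Mb in leaf. The unbordered runs held 6.95 Mb of the leaf E1 sequence, or 17.3% of it.

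Accessible chromatin was the usual neighbour. E7 lay beside 10519 of the 14395 runs (73.1%) and took 49.1% of all sides, E9 took 28.6% of the sides and E6 took 15.6%. By their neighbours the runs fell into 4 classes. In 10891 runs (75.7%) at least 1 neighbour was E6 or E7 and the other was E6, E7 or E9, and this is the accessible class. E9 stood on both sides of 1689 runs (11.7%), the E9-flanked class. A mixed state (E3, E4 or E8) without E5 stood beside 1616 runs (11.2%), and the repressed state E5 beside 199 runs (1.38%). The most frequent pairs were E7 with E9 (3728 runs), E7 on both sides (3629 runs) and E6 with E7 (2081 runs). Only 15 runs had E5 on both sides.

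**Figure D1:**
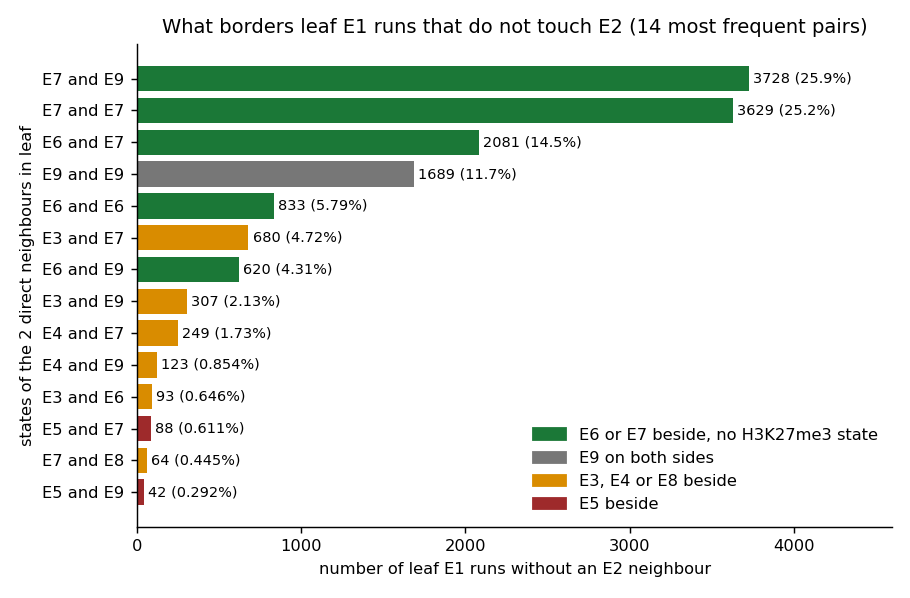
Horizontal bars give the number of leaf E1 runs without an E2 neighbour for the 14 most frequent pairs of neighbour states, left and right order ignored, coloured by neighbour class. E7 with E9 and E7 on both sides reach 3728 and 3629 runs, and all pairs with a H3K27me3 state stay at 680 runs or fewer.

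The accessible neighbours were short. An E7 neighbour had a median length of 200 bp, the length of a single bin, and an E6 neighbour 400 bp, while an E9 neighbour had a median of 2200 bp. E5 neighbours were the longest of the marked ones, with a median of 2000 bp. Another E1 run lay exactly 200 bp away from 2638 of the unbordered runs (18.3%), so that a single bin of another state parted the pair, and in 46.5% of these the other run was unbordered too. The median distance to the nearest other E1 run was 3000 bp.

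The unbordered runs were mostly very short, with a tail of long ones. Their mean length was 482 ± 511 bp (SD over runs) and their median 200 bp, and 8582 of them (59.6%) were a single bin. Runs with E2 on 1 side averaged 430 ± 347 bp with a median of 400 bp, and runs with E2 on 2 sides averaged 486 ± 872 bp with a median of 200 bp. At 1000 bp or more stood 15.1% of the unbordered runs, against 6.75% of the runs with E2 on 1 side and 8.87% of those with E2 on 2 sides. The longest unbordered run measured 5800 bp, while E2-bordered runs reached 24400 bp. Among the classes the accessible one was longest on average (520 ± 551 bp), followed by the E9-flanked (391 ± 363 bp), mixed (347 ± 306 bp) and repressed (329 ± 304 bp) classes, and all 4 classes had a median of 200 bp.

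**Figure D2:**
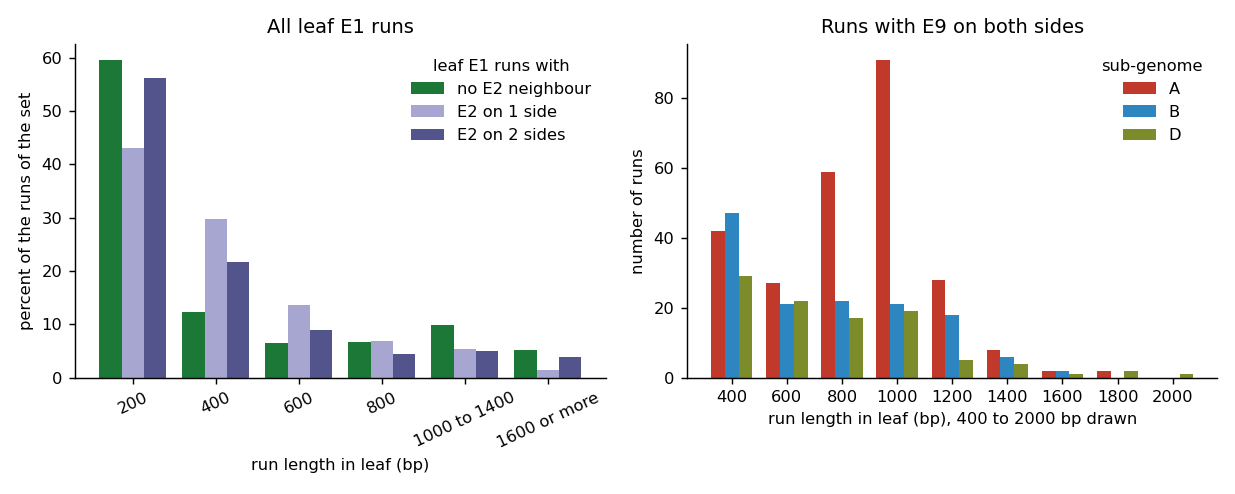
Left, percent of leaf E1 runs in 6 length classes (bp) for runs with no E2 neighbour, E2 on 1 side and E2 on 2 sides. Right, number of runs with E9 on both sides by length (bp, 200 bp steps from 400 to 2000 bp) in the 3 sub-genomes, where sub-genome A reaches 91 runs at 1000 bp, against 21 in B and 19 in D.

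E2 was near even where it did not touch. The distance from an unbordered run to the nearest leaf E2 run had a median of 1200 bp and quartiles of 400 and 4200 bp, and 7177 runs (49.9%) had E2 within 1000 bp. Within 2000 bp, E2 was found on both sides of 2741 runs (19.04%), on 1 side of 6580 (45.7%) and on neither side of 5074 (35.2%). In the other direction, 2508 runs (17.4%) lay more than 10000 bp from any E2 and 668 (4.64%) more than 100000 bp. Median distances were 1000 bp in the accessible, 2200 bp in the mixed, 2800 bp in the E9-flanked and 5200 bp in the repressed class.

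What stood between the run and E2 was accessible chromatin in most cases. For the 7177 runs with E2 within 1000 bp, the stretch between held E7 alone in 1485 runs (20.7%), E6 alone in 1410 (19.6%) and E7 together with another E1 run in 1379 (19.2%). E9 alone parted 1025 runs (14.3%) from E2. Of all unbordered runs, 6262 (43.5%) sat in an unbroken stretch of the activated states E1, E2, E6 and E7 that also held E2. The other 8133 (56.5%) sat in a stretch without E2, with a median stretch length of 800 bp per run. The E1 runs just inside and just outside the rule thus differed by 1 bin of another state: 1671 unbordered runs had E2 exactly 200 bp away and averaged 414 bp, while the 73691 E2-bordered runs averaged 449 bp.

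**Figure D3:**
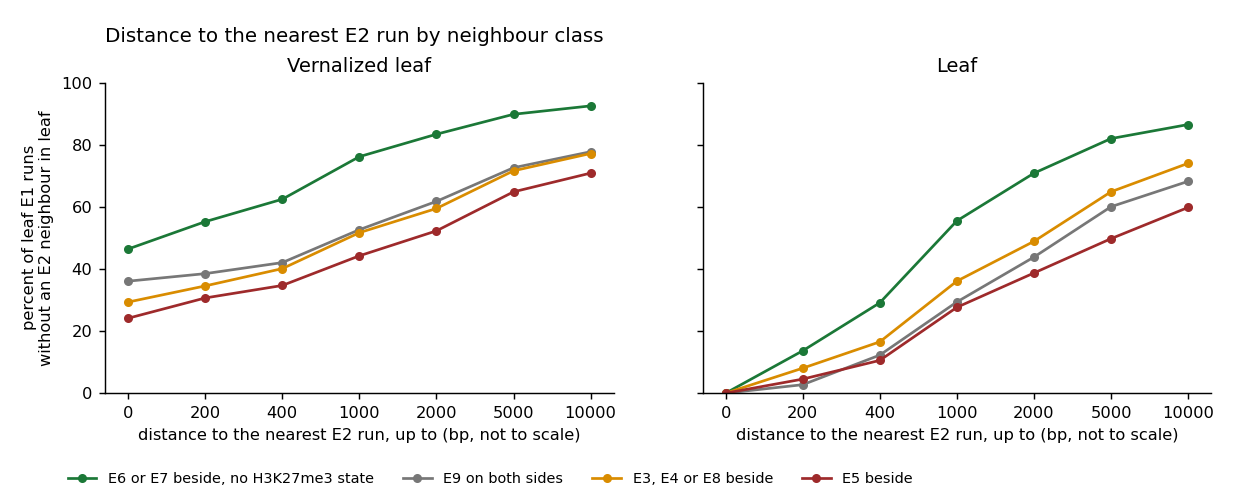
Cumulative percent of leaf E1 runs without an E2 neighbour that have an E2 run within the distance on the horizontal axis (bp, steps not to scale), in vernalized leaf (left) and leaf (right), by neighbour class. At 0 bp, where the run touches or holds E2, the accessible class stands at 46.4% in vernalized leaf and at 0% in leaf, where the rule sets it.

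In vernalized leaf, 24.5% of the unbordered runs still held E1, and the others spread over E2, E6 and E9. At least 1 bin of E1 was found in 3522 of the 14395 runs (24.5%), of E2 in 4626 (32.1%), of E6 in 3953 (27.5%), and of E7 in 1408 (9.78%). Only E9 remained in 3679 runs (25.6%), and 924 runs (6.42%) held a state with H3K27me3. Over all 88086 leaf E1 runs the matching shares were 41.5% for E1, 55.0% for E2, 12.5% for E6, 9.42% for only E9 and 2.86% for a H3K27me3 state, and 88.3% held an activated state.

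Unbordered runs held E1 in vernalized leaf less often than E2-bordered runs. The E2-bordered set was not uniform, with E1 in 49.0% of runs with E2 on 1 side and 36.9% of those with E2 on 2 sides. Across the 7 homoeologous chromosome groups, each a sum over the A, B and D copies, the lowest, median and highest shares with E1 were 23.8%, 24.2% and 25.7% for unbordered runs, against 44.0%, 44.9% and 46.1% for E2-bordered runs. The groups did not overlap, and the mean difference was -20.4 ± 1.17 percentage points (SD, n = 7 chromosome groups, adjusted p = 0.027 in an exact permutation test that flips the sign of each group's difference, two-sided). The smallest p this test can give with 7 groups is 0.0156, which came to 0.027 after Benjamini-Hochberg adjustment over the 19 comparisons computed. Under an alternative setting the same p can take another adjusted value. Chromosomes of 1 map are not plant replicates, so these p-values measure the spread between chromosomes only.

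The direction depended on run length. Of single-bin runs, 3.74% of the unbordered held E1 in vernalized leaf, against 26.4% of the E2-bordered. At 600 bp the shares were 44.7% of the unbordered and 66.2% of the E2-bordered runs. At 1000 to 1400 bp they were 81.1% of 1427 unbordered runs and 76.6% of 3845 E2-bordered runs, and at 1600 bp or more 93.3% of 743 unbordered and 80.9% of 1663 E2-bordered runs, with the unbordered higher in 7 of 7 chromosome groups in both classes. Restricted to runs of 1000 bp or more, an alternative added after the data were seen, the difference was 7.29 percentage points in the opposite direction (85.1% of unbordered and 77.9% of E2-bordered runs, adjusted p = 0.042, exact permutation test). With the deposited segments taken unmerged, so that a segment may border another E1 segment, the difference was -0.47 percentage points (adjusted p = 0.33, exact permutation test).

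**Figure D4:**
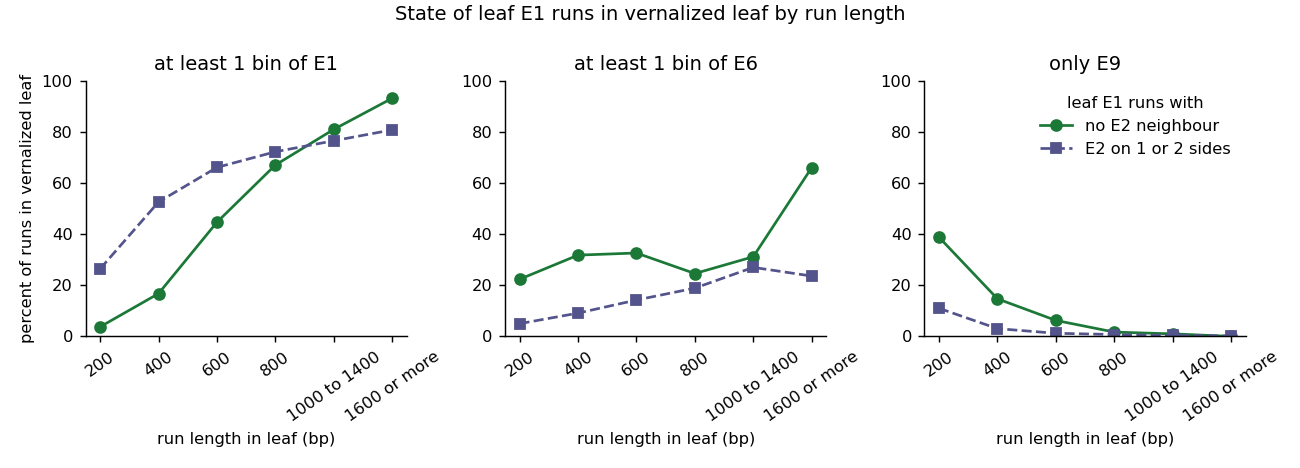
Percent of leaf E1 runs that hold at least 1 bin of E1, at least 1 bin of E6 or only E9 in vernalized leaf, by run length in leaf (bp), for runs with no E2 neighbour (circles) and with E2 on 1 or 2 sides (squares). The curves for E1 cross between 800 and 1000 bp, and unbordered runs of 1600 bp or more hold E6 in 66.1% of cases, against 23.6% of E2-bordered runs of that length.

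Fewer unbordered runs held any activated state in vernalized leaf (68.9 ± 1.32% against 92.1 ± 0.321% of E2-bordered runs, SD, n = 7, adjusted p = 0.027, exact permutation test). For runs of 1000 bp or more these shares were 98.4% of unbordered and 99.2% of E2-bordered runs, and the difference did not pass (adjusted p = 0.074, exact permutation test). Since 1 activated bin is enough to count, this measure nears its upper limit in long runs. Only E9, the unmodified state, was found in 25.7 ± 1.08% of unbordered runs, against 6.25 ± 0.233% of E2-bordered runs (n = 7, adjusted p = 0.027, exact permutation test). By this measure the difference lay in short runs, with only E9 in 38.8% of single-bin unbordered runs and in 0.981% of those of 1000 to 1400 bp. Among runs of 1000 bp or more it was 0.32 percentage points, with 0.637% of unbordered and 0.317% of E2-bordered runs (adjusted p = 0.12, exact permutation test). Every bin has to be E9 to count, so the measure falls as runs lengthen. By bases, E9 took 6.30% of unbordered and 3.49% of E2-bordered sequence at 1000 to 1400 bp. At 1600 bp or more these shares of bases were 2.71% and 1.64%. H3K27me3 states were more frequent in unbordered runs, at 6.42 ± 0.483%, against 2.15 ± 0.269% of E2-bordered runs (n = 7, adjusted p = 0.027, exact permutation test). The rule bears on this test, since a run with E2 on 2 sides has no H3K27me3 state beside it. The mixed and repressed classes were defined by such a state beside the run. This test therefore cannot part run type from a H3K27me3 state next to the run in leaf. By leaf neighbours the share was 31.5% in the mixed and 19.6% in the repressed class. It was 3.49% in the E9-flanked and 2.91% in the accessible class, against 2.57% of runs with E2 on 1 side. E3 was found in 385 unbordered runs, E8 in 310, E5 in 267 and E4 in 38.

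The gene body state appeared in many runs that lacked it as a neighbour in leaf. E2 was present inside 32.1 ± 0.870% of unbordered runs in vernalized leaf, against 59.4 ± 0.792% of E2-bordered runs (n = 7, adjusted p = 0.027, exact permutation test). The rule split the runs by E2 beside them in leaf, so this test cannot part run type from closeness to leaf E2. With runs widened by 1 bin the difference was -36.6 percentage points, against -27.3 without. In vernalized leaf 6186 unbordered runs (43.0%) held or touched E2, and the share with E2 within 1000 bp was 70.2% in vernalized leaf and 49.9% in leaf. The leaf value is set in part by the rule, so no test was made of this pair. Of the 3522 runs that still held E1, 2029 (57.6%) met a vernalized leaf E1 run that touched E2, and 1517 (43.1%) met one that did not, some runs meeting both kinds.

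E6, accessible chromatin with some H3K27ac, was found in 27.5% of unbordered and 9.61% of E2-bordered runs in vernalized leaf, and the unbordered were higher on 21 of 21 chromosomes, by 11.7 percentage points on chromosome 6A to 22.0 on 6D. This measure was not among the tests and is given as a description. In 1919 single-bin runs (22.4%) the bin was E6. The share with E6 followed the leaf neighbours, which the rule used: it was 54.0% of runs between 2 E6 neighbours, 46.8% of those between E6 and E7, 33.6% of those between 2 E7 neighbours and 6.34% of the E9-flanked runs. Along runs of 1000 bp or more, E1 next to E6 was the most frequent order of states in vernalized leaf (280 of 2170 runs, 12.9%), followed by E1 next to E2 (223 runs, 10.3%) and E1 throughout (181 runs, 8.34%).

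The neighbour classes differed in what they held in vernalized leaf. E1 was found in 2885 of the accessible runs (26.5%), 338 of the E9-flanked runs (20.01%), 274 of the mixed runs (16.96%) and 25 of the repressed runs (12.6%). Only E9 was found in 51.7% of the E9-flanked runs, in 42.7% of the repressed, in 22.4% of the mixed and in 21.7% of the accessible runs. States with H3K27me3 were found in 31.5% of mixed and 19.6% of repressed runs, against 3.49% of E9-flanked and 2.91% of accessible runs. E3 was found in 13.99% of the mixed runs.

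The E9-flanked runs held E1 in vernalized leaf less often than the accessible runs, with lowest, median and highest chromosome group shares of 16.8%, 19.3% and 22.6% in E9-flanked runs, against 25.2%, 26.6% and 28.5% in accessible runs. The mean difference was -6.58 ± 2.59 percentage points (SD, n = 7, adjusted p = 0.027, exact permutation test). It did not pass at matched length. With length classes weighted alike the difference was 0.20 percentage points (adjusted p = 0.86, exact permutation test), and for runs of 400 bp or more it was 4.01 in the opposite direction (adjusted p = 0.064). E9-flanked runs did not differ from mixed runs beyond the spread between chromosome groups (3.03 ± 3.94 percentage points, n = 7, adjusted p = 0.15, exact permutation test). For runs of 400 bp or more, that difference was 27.8 percentage points (61.1% of E9-flanked against 33.3% of mixed runs, adjusted p = 0.030, exact permutation test), and for single-bin runs it was -5.95 (2.47% of E9-flanked against 8.42% of mixed runs, adjusted p = 0.030).

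Distance to E2 went with the state in vernalized leaf. The share of unbordered runs with E1 was 19.5% at 200 bp from E2, 17.9% at 400 bp, 21.1% at 1200 to 2000 bp, 33.4% at 5200 to 20000 bp and 44.9% beyond 20000 bp, where mean run length was 618 bp, against 414 bp at 200 bp. E6 ran the other way, with 32.6% at 200 bp and 15.1% beyond 20000 bp. H3K27me3 states were found in 4.19% of runs at 200 bp and 10.7% of those beyond 20000 bp. E2-bordered runs, at a distance of 0, held E1 in 44.9%, E6 in 9.61% and H3K27me3 states in 2.16%.

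The surroundings changed with the runs. In the bin next to the run, E7 stood on 9.56% of sides in vernalized leaf and 49.1% in leaf. E6 stood there on 21.6% of sides in vernalized leaf and 15.6% in leaf, and E9 on 41.1% in vernalized leaf and 28.6% in leaf. E2 stood there on 19.2% of sides in vernalized leaf, and on none in leaf by the rule. At 2000 bp from the run, E2 stood on 20.8% of sides in vernalized leaf and 18.8% in leaf, and E5 on 3.57% in vernalized leaf and 7.08% in leaf. The leaf values of the bin next to the run are conditioned by the rule, so its differences between the maps are in part set by the choice of runs. Over the whole genome, E7 covered 64.6 Mb in vernalized leaf and 48.0 Mb in leaf. E5 covered 494.65 Mb of the genome in vernalized leaf and 597.03 Mb in leaf.

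The same rule applied to the vernalized leaf map gave 6874 of 61454 E1 runs (11.2%). The accessible class took 76.0% of the runs in vernalized leaf and 75.7% in leaf. The E9-flanked class took 16.9% in vernalized leaf and 11.7% in leaf, the mixed class 7.06% in vernalized leaf and 11.2% in leaf, and the repressed class 2 runs in vernalized leaf and 199 in leaf. Their median length was 400 bp in vernalized leaf and 200 bp in leaf. Of the 6874 vernalized leaf runs, 1538 (22.4%) met an unbordered leaf run, 2360 (34.3%) met an E2-bordered leaf run and 2990 (43.5%) met no leaf E1, with some runs meeting both kinds.

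Along the chromosomes, unbordered runs were densest towards the ends. The first and last 10% of the chromosomes held 1.76 ± 0.244 runs per Mb, against 0.836 ± 0.107 in the rest (SD, n = 7), and the lowest end value of 1.43 stood above the highest rest value of 1.05. They were also a larger share of the leaf E1 runs there, 20.3 ± 1.11% at the ends and 14.8 ± 0.573% in the rest (SD, n = 7), higher at the ends in 7 of 7 chromosome groups. Over 20 equal position blocks, the density was highest in the last block at 2.21 runs per Mb and lowest in the seventh at 0.445. Mixed neighbours made up 14.02% of the end runs and 9.75% of the others, and repressed neighbours 2.68% of the end runs and 0.70% of the others. Runs at the ends held H3K27me3 states in vernalized leaf in 9.37% of cases, against 4.87% in the rest.

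The share of unbordered runs with E1 in vernalized leaf did not differ between ends and rest beyond the spread between chromosome groups (23.3 ± 2.35% at the ends, 25.2 ± 2.36% in the rest, n = 7, adjusted p = 0.39, exact permutation test). With the first and last 20% taken as ends the difference was -5.08 percentage points (22.5% at the ends against 27.6% in the rest, adjusted p = 0.025, exact permutation test). The highest block shares lay in the middle, with 44.1% in the eighth block, where the mean run length was 589 bp, and the lowest share of 19.05% lay in the third block, where it was 420 bp.

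**Figure D5:**
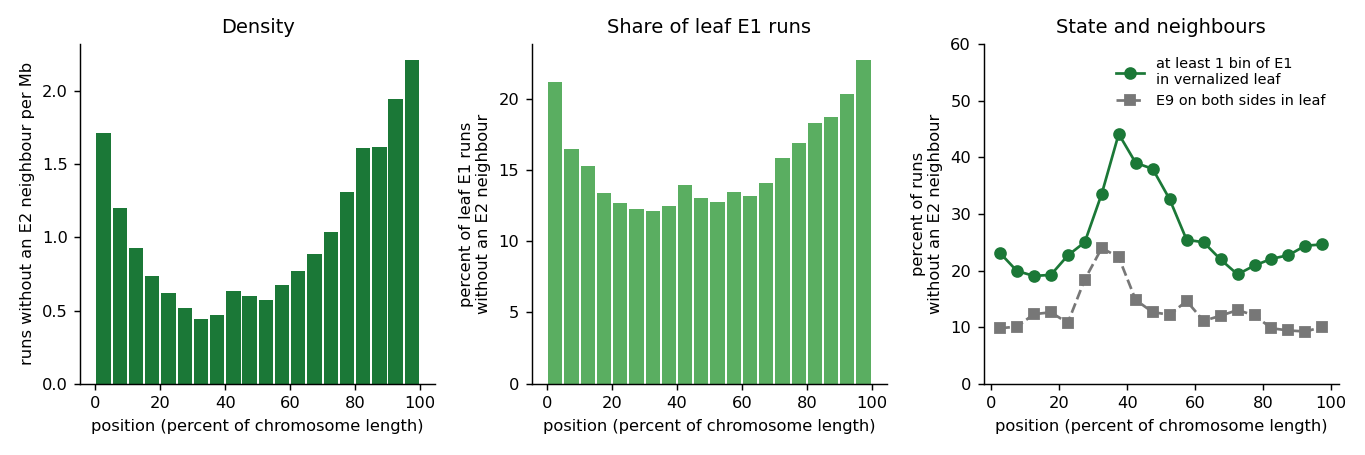
Leaf E1 runs without an E2 neighbour in 20 equal blocks of chromosome length (percent), summed over 21 chromosomes: runs per Mb (left), percent of all leaf E1 runs (middle), and percent with at least 1 bin of E1 in vernalized leaf (circles) or with E9 on both sides in leaf (squares, right). Density is highest in the outer blocks, at 1.71 and 2.21 runs per Mb, while the share with E1 peaks at 44.1% in the eighth block.

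Among the sub-genomes, A held 5125, B 4635 and D 4635 unbordered runs. Per Mb of chromosome the values were 1.04 ± 0.124 in A, 0.895 ± 0.130 in B and 1.17 ± 0.0999 in D (SD, n = 7 chromosomes each). The difference was -0.136 per Mb for A minus D and -0.28 for B minus D, with A and B below D in 7 of 7 chromosome groups, and 0.143 for A minus B, with A above B in 6 of 7. The difference for A minus D was -0.0042 per Mb for runs of 400 bp or more and 0.0093 when runs with E2 within 1000 bp were left out. Chromosome 1B had the lowest density, 0.694 per Mb, and 5D the highest, 1.28. As a share of leaf E1 runs the 3 sub-genomes stood at 16.4 ± 0.558% in A, 16.7 ± 0.713% in B and 15.8 ± 0.597% in D (SD, n = 7), and the values of the 3 sub-genomes overlapped. For runs of 400 bp or more the differences were 2.05 percentage points for A minus D and 1.496 for B minus D.

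Sub-genome A kept E1 most often. In vernalized leaf E1 was found in 27.2 ± 1.53% of the unbordered runs of A, 23.6 ± 1.70% of B and 22.4 ± 1.56% of D (SD, n = 7). The A values of 25.2% to 29.4% did not overlap with the D values of 20.95% to 24.96% (difference 4.78 ± 2.10 percentage points, adjusted p = 0.027, exact permutation test). A was above B in 6 of 7 groups (3.52 ± 2.93 percentage points, adjusted p = 0.049, exact permutation test), and B and D did not differ beyond their spread (1.26 ± 2.18, adjusted p = 0.24, exact permutation test). Neither difference from A passed for runs of 400 bp or more (3.85 percentage points against B, adjusted p = 0.15, and 4.92 against D, adjusted p = 0.14, exact permutation tests), nor for single-bin runs (1.14 against B, adjusted p = 0.17, and 0.74 against D, adjusted p = 0.33). For runs of 1000 bp or more A minus B was 0.05 percentage points and A minus D -3.06. Chromosome 2A had the highest share, 29.4%, and 1D the lowest, 20.95%. E6 was ordered the other way as a description, with 24.8 ± 2.71% of runs in A, 27.8 ± 1.46% in B and 29.6 ± 1.64% in D.

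The E9-flanked runs differed between the sub-genomes in length. In A, 178 of 675 E9-flanked runs (26.4%) measured 800 to 1200 bp, against 61 of 563 (10.8%) in B and 41 of 451 (9.09%) in D, while single-bin runs numbered 412 in A, 425 in B and 348 in D. This length window was chosen after the lengths were seen, so no test was made. A held the most such runs in 7 of 7 chromosome groups, with 18 to 37 on each A chromosome, 5 to 15 on each B and 2 to 9 on each D chromosome. Of the 280 such runs in all, 218 (77.9%) held E1 and 79.6% held E2 in vernalized leaf. Among all unbordered runs, E1 was held by 67.1% at 800 bp and 81.1% at 1000 to 1400 bp. E2 was held by 56.4% and 63.6% at these lengths, so the E1 share of the 280 runs was near that of their length. Their median distance to leaf E2 was 26000 bp in all, with 36600 bp in A, 5800 bp in B and 28200 bp in D. Their most frequent state order was E1 next to E2 (46 runs), and 107 of the 280 (38.2%) lay between 30 and 50 percent of chromosome length. That share was 42.1% in A, 27.9% in B and 36.6% in D. Of all 14395 unbordered runs, this stretch (blocks 7 to 10 of the 20 position blocks) held 313, 331, 446 and 419 runs, block by block. The E9-flanked class made up 24.0%, 22.4%, 14.8% and 12.6% of the unbordered runs in these blocks. The same blocks had the highest shares with E1 of the 20, and no test was made of this stretch. E1 was found in 28.9% of all E9-flanked runs of A in vernalized leaf, against 13.7% in B and 14.6% in D, and outside that length window in 11.7% in A, 6.77% in B and 6.83% in D. Of the 1409 runs outside the window, 1185 were single bins. Without the E9-flanked class, A minus B in the share with E1 was 1.82 percentage points (adjusted p = 0.19) and A minus D 3.70 (adjusted p = 0.027, exact permutation tests).

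Single runs show the range. Coordinates are 1-based in the IWGSC RefSeq v1.0 assembly, no gene annotation of this build was used, and so no gene is named beside them. The longest unbordered run, with 5800 bp, lay in the accessible class on chromosome 1D from 452478201 to 452484000, between 800 bp of E7 and 1600 bp of E6 and 2600 bp from the nearest leaf E2. In vernalized leaf it held 2800 bp of E1, 1800 bp of E2 and 1200 bp of E6, with E6 at both ends. The longest E9-flanked run (1D, 378103401 to 378106800) was 3400 bp long and lay 400 bp from leaf E2, and in vernalized leaf 2000 bp of it were E1, 1000 bp E6 and 400 bp E2. The longest run beside a mixed state (7B, 715714001 to 715717000) was 3000 bp long with E3 on 1 side and E9 on the other, lay 26000 bp from leaf E2, and was 86.7% E1 in vernalized leaf. The longest run beside E5 (1A, 540627201 to 540629400) was 2200 bp long, and in vernalized leaf E1 and E6 alternated along it, with 1400 bp of E1 and 800 bp of E6. All 4 of these long runs still held E1, as did 693 of 743 unbordered runs (93.3%) of 1600 bp or more.

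The longest run that was wholly E1 in vernalized leaf measured 2600 bp on chromosome 2D (152626401 to 152629000). It stood between single E7 bins in leaf, 25200 bp from leaf E2, and touched E2 in vernalized leaf. At the other extreme, the longest run that was wholly E9 in vernalized leaf measured 1200 bp on chromosome 1A (542167801 to 542169000), the first of 2 runs of that length, and had 29200 bp of E9 on 1 side and a single E7 bin on the other. The run farthest from any leaf E2 was an E9-flanked run of 600 bp on chromosome 1B (217632601 to 217633200), 6300600 bp from E2 in leaf and 5715000 bp in vernalized leaf. It was E1 throughout in vernalized leaf.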

How the data were processed

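The authors made ChIP-seq libraries for 4 histone marks and input from leaf and vernalized leaf. Per the labels' processing notes they used fastp 0.21.0 and Bowtie2 2.3.5.1. By the study's methods ChromHMM, trained on peaks of ATAC-seq and of the 4 marks, sorted the genome into 9 states. The deposited maps, 1 per condition, have segment bounds at multiples of 200 bp. Each deposited segmentation covers 21 chromosomes, with state labels and no signal, counts or depth. There were 0 columns that matched no condition.

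Neighbouring segments of the same state were merged, which left 1026958 of 1603362 segments in leaf and 1053824 of 1833172 in vernalized leaf. E1 runs without an E2 neighbour were kept. A run counts as holding a state if at least 1 of its bins has that state in vernalized leaf. Shares were computed per homoeologous chromosome group or per chromosome and compared by an exact permutation test that flips the signs of the 7 group differences (two-sided, 128 patterns), with Benjamini-Hochberg adjustment over 19 comparisons, of which the 8 on counts from the leaf map alone are given as descriptions without p (Python 3.11.15, numpy 2.4.6, pandas 2.3.3). The steps were tested on simulated segmentations. The members and neighbour classes were chosen with earlier results of these data known. Runs named with coordinates are the longest of each neighbour class, the longest wholly E1 and wholly E9 in vernalized leaf and the farthest from E2, ties going to the first. Alternatives were minimum length, unmerged segments, distance to E2, other ways of counting a state, length weighting, wider ends, chromosome means and leaving out each chromosome group. Runs of 1000 bp or more, runs of 200 bp and leaving out E9-flanked runs were added after seeing the data.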

Additional observations from a re-analysis of the deposited data

How the results depend on the processing

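No paired analysis was possible because the deposited state maps are given per condition and not per replicate. Of 134 values recomputed under settings other than leaving out a chromosome group, 85 kept their direction and their side of the threshold, 17 no longer passed, 12 newly passed and 20 changed sign. These counts include densities and shares of leaf E1 runs, which are descriptions, and the cause of the changes was not tested. All differences below are in percentage points unless given per Mb. Runs of 400 bp or more gave 4.01 for E9-flanked minus accessible and 27.8 for E9-flanked minus mixed runs, 3.85 (A minus B) and 4.92 (A minus D) for the share with E1, 0.083 per Mb (A minus B) and -0.0042 per Mb (A minus D) for density, and 0.56, 2.05 and 1.496 for the share of E1 runs in A minus B, A minus D and B minus D. Unmerged segments gave -0.47 for unbordered minus E2-bordered, -2.95 for E9-flanked minus accessible, -11.7 for E9-flanked minus mixed and 1.37 for ends minus rest in the share with E1. In A minus B, A minus D and B minus D they gave 0.79, 0.58 and -0.22 for that share, and 0.74 and 1.02 for the share of E1 runs in A minus B and A minus D. Leaving out runs with E2 within 1000 bp gave 9.18 for E9-flanked minus mixed, -6.00 for ends minus rest, 5.90 for A minus B in the share with E1, 0.0966 and 0.0093 per Mb for A minus B and A minus D in density, and 0.22, 1.498 and 1.28 for the 3 differences in the share of E1 runs. E9-flanked minus mixed was -1.01 with at least 0.5 of the bins required, 6.02 as a share of bases, -3.69 with runs widened by 1 bin and -1.42 with length classes weighted alike. The share of bases also gave 0.61 for ends minus rest and 0.73 and 1.97 for A minus B and A minus D. Length weighting gave 0.20 for E9-flanked minus accessible, and ends of 20% gave -5.08 for ends minus rest.

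Among the settings added after seeing the data, runs of 1000 bp or more gave 7.29 for E1, -0.83 for any activated state and 0.32 for only E9 in unbordered minus E2-bordered runs, 0.018 for E9-flanked minus accessible, and 0.048, -3.06 and -3.11 for A minus B, A minus D and B minus D. Single-bin runs gave -0.73 for E9-flanked minus accessible, -5.95 for E9-flanked minus mixed, 1.07 for ends minus rest, and 1.14, 0.74 and -0.40 for the sub-genomes. Leaving out E9-flanked runs gave 1.82 for A minus B.

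Leaving out 1 chromosome group changed no direction. With 6 groups the smallest p is 0.0312, so a lost call says nothing about stability. For unbordered minus E2-bordered runs the ranges were -20.6 to -20.1 (E1), -23.5 to -22.8 (activated), 19.1 to 19.6 (only E9), -27.6 to -26.9 (E2) and 4.15 to 4.36 (H3K27me3 states). E9-flanked minus accessible ranged over -7.18 to -6.04. The share with E1 ranged over 2.77 to 4.20 for A minus B and 4.18 to 5.12 for A minus D. Density ranged over 0.0967 to 0.186, -0.148 to -0.110 and -0.314 to -0.244 per Mb for A minus B, A minus D and B minus D, and 0.873 to 0.985 per Mb for ends minus rest. The share of E1 runs ranged over 0.50 to 0.80 for A minus D, 0.75 to 1.08 for B minus D and 5.27 to 5.96 for ends minus rest.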
